A study of Neurospora crassa OR74A with 2 samples.

Results

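Ribosomal protein genes of the cytosolic ribosome were followed in Neurospora crassa, a filamentous ascomycete fungus, with and without the transcription factor PP-1. The set held 60 genes, chosen by identifier from a given list of genes for both ribosomal subunits, out of 8564 genes measured. Whether all 60 encode ribosomal proteins was not tested. The choice used no cut on their values, but it was made with earlier results of these data known. All 60 were present in both libraries and above 0 in both. The mutant strain, Δpp-1, lacks the gene pp-1, which encodes a factor of the Ste12 type. It was set against the wild-type strain FGSC 2489. Each strain gave 1 RNA-seq library, from conidia (asexual spores) incubated for 5 h at 30 °C, an age at which wild-type germlings fuse. The labels do not give the mating type of the deletion strain, how it was made or how many cultures went into a library.

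Cytosolic ribosomal proteins assemble with ribosomal RNA into a small subunit, which decodes messenger RNA, and a large subunit, which joins amino acids. Each protein is needed in roughly equal numbers per ribosome, so the genes are known for high and well matched transcript levels in growing cells. In fungi their transcription follows growth rate and nutrients, and a germinating spore has to make ribosomes to grow.

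Levels are given as RPKM (reads per kilobase per 1000000 reads of the library), a scale on which genes of different length can be set side by side. As each strain has 1 library, no test could be made, no difference has a replicate check, and each value describes these libraries. Because the libraries are bulk RNA, fewer cells of a type and less RNA per cell cannot be told apart. Differences are log2((Δpp-1 + 1)/(wild type + 1)), so that negative values are lower in Δpp-1. The spacing of the lowest values, taken as 1 read, put the totals behind the RPKM at 9363920 reads in Δpp-1 and 7870075 reads in the wild type. No gene stood at a single read on this scale, and the totals could be as low as 4681955 reads in Δpp-1 and 3935025 reads in the wild type. The deleted gene pp-1 (NCU00340) stood at 1.69 RPKM in Δpp-1 and 83.8 RPKM in the wild type, a log2 difference of -4.98. The low value was in the library labelled as the deletion. The median over the 6885 genes averaging 1 RPKM or more in these libraries, here called all genes, was 14.5 RPKM in Δpp-1 and 17.6 RPKM in the wild type. Their median log2 difference was -0.25, so that shifts are also given relative to it.

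The transcripts of 59 of the 60 genes stood within a narrow band near the top of both libraries, and NCU05275 stood far below them. The median of the 60 was 1416 RPKM in Δpp-1 and 2300 RPKM in the wild type, which is 97.6 times the median of all genes in Δpp-1 and 131 times in the wild type. Without NCU05275 the levels ran from 843 to 2787 RPKM in Δpp-1, a 3.31-fold range. In the wild type they ran from 1420 to 4138 RPKM, a 2.91-fold range. The SD of log2(RPKM + 1) over these 59 genes was 0.35 for Δpp-1 and 0.32 for the wild type. Over all genes it was 1.96 for Δpp-1 and 1.98 for the wild type. Of the 100 genes with the highest values, 55 for Δpp-1 and 58 for the wild type were among the 60. The 59 genes held ranks from 7 to 110 for Δpp-1 and from 5 to 103 for the wild type.

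**Figure D1:**
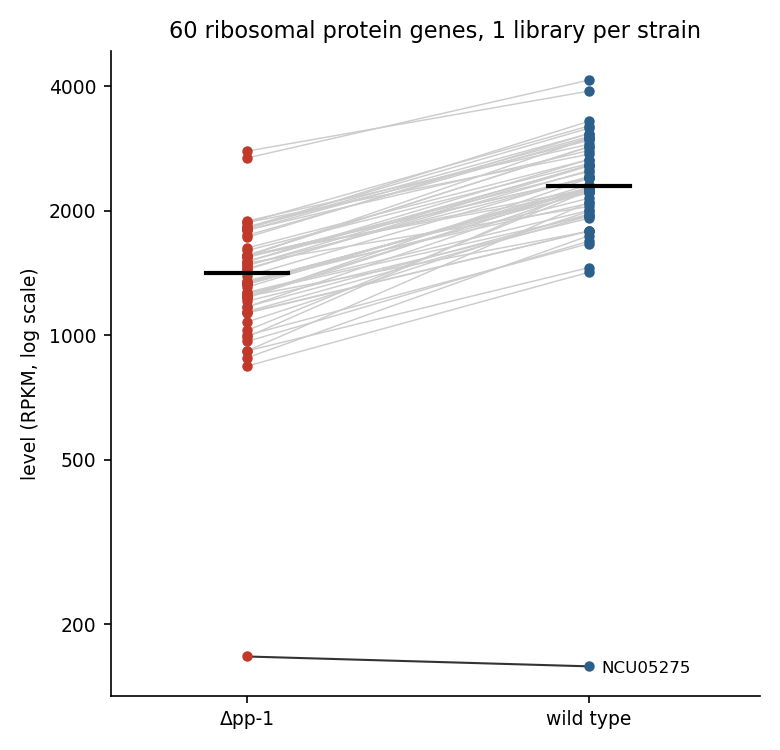
Level of each of the 60 ribosomal protein genes (RPKM, log scale) in the Δpp-1 library (left) and the wild-type library (right); each line joins 1 gene, and the black bars are the medians, 1416 RPKM in Δpp-1 and 2300 RPKM in the wild type. The lines of 59 genes slope the same way, and NCU05275 lies far below the others with 167 RPKM in Δpp-1 and 158 RPKM in the wild type.

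The highest members were NCU00979 and crp-5. NCU00979 stood at 2683 RPKM in Δpp-1 and 4138 RPKM in the wild type. crp-5 (NCU04552) stood at 2787 RPKM in Δpp-1 and 3892 RPKM in the wild type. The next by mean level were close to one another. NCU03988 stood at 1809 RPKM in Δpp-1 and 3290 RPKM in the wild type. NCU02181 stood at 1874 RPKM in Δpp-1 and 3205 RPKM in the wild type. NCU02707 stood at 1826 RPKM in Δpp-1 and 3166 RPKM in the wild type. At the lower end of the band, NCU06892 stood at 843 RPKM in Δpp-1 and 1420 RPKM in the wild type. NCU03302 stood at 917 RPKM in Δpp-1 and 1457 RPKM in the wild type. NCU00618 stood at 966 RPKM in Δpp-1 and 1688 RPKM in the wild type. NCU06210 stood at 883 RPKM in Δpp-1 and 1740 RPKM in the wild type. The lower members were 0.60 to 0.68 times the median member in Δpp-1 and 0.62 to 0.76 times in the wild type, so that even the ends of the band, NCU05275 aside, were within a few-fold of each other.

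NCU05275 did not have the level of the others. It had 167 RPKM in Δpp-1 and 158 RPKM in the wild type, which is rank 366 among all genes in Δpp-1 and rank 465 in the wild type. It was the one gene of the 60 that was not lower in Δpp-1, with a log2 difference of 0.08 and a 95% counting interval of -0.06 to 0.22. The gene table used for names gives it no symbol, and whether it encodes a ribosomal protein was not tested. A second identifier, NCU02075, carries the symbol hsp70-2 in that table, which is the name of an Hsp70 chaperone and not of a ribosomal protein. It stood at 1000 RPKM in Δpp-1 and 1665 RPKM in the wild type, inside the band of the others, with a log2 difference of -0.73. Both are kept in the counts below.

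Ribosomal protein transcripts were lower in Δpp-1 almost without exception. The log2 difference was below 0 for 59 of the 60 genes, with a median of -0.75 and quartiles of -0.82 and -0.66. A median of -0.75 means that the middle gene was 1.68-fold lower. Of the 60 genes, 53 (88.3%) were at least 1.5-fold lower and 0 at least 1.5-fold higher, where 22.3% of all genes were at least 1.5-fold lower and 7.16% at least 1.5-fold higher. At 2-fold, 3 genes (5%) were lower and 0 higher, against a background of 7.02% lower and 3.12% higher among all genes, so that the share past 2-fold was near the background. Without NCU05275 and NCU02075, 52 of 58 genes (89.7%) were at least 1.5-fold lower, with a median of -0.76. The median of the 60 lay 0.50 below the median of all genes, or 1.42-fold lower relative to it, and 59 of the 60 genes lay below that median.

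**Figure D2:**
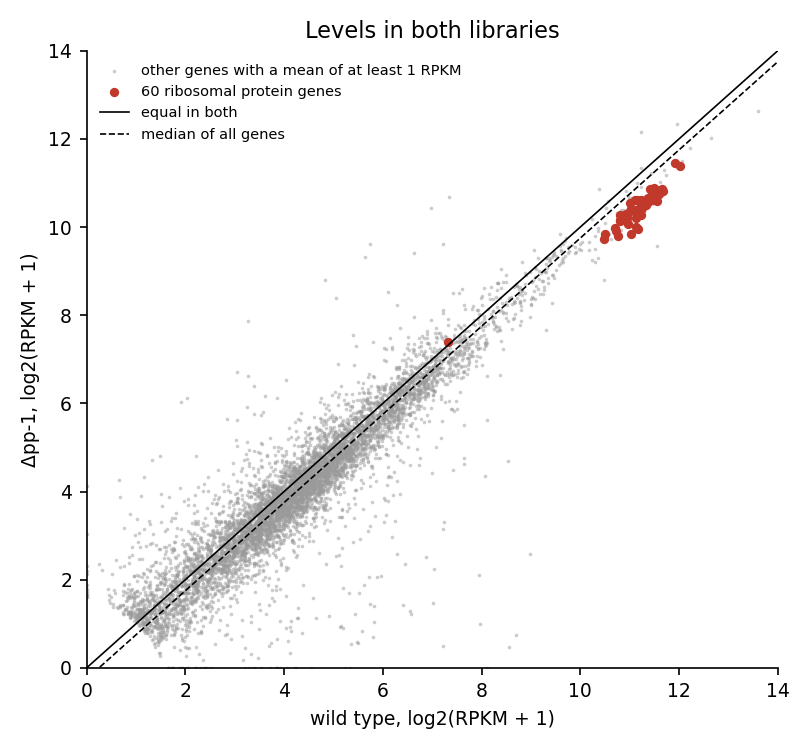
Level of each gene averaging 1 RPKM or more, in the wild-type library (x axis) and the Δpp-1 library (y axis), both as log2(RPKM + 1), with the 60 ribosomal protein genes in red. The red points form a cluster at the upper end, below the solid line of equal levels and below the dashed line of the all-gene median (-0.25), except NCU05275 near the middle of the plot.

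How large the shift is depends on the scaling of the libraries to each other. Measured from the median of all genes, 13 members (21.7%) were at least 1.5-fold lower, where 10.3% of all genes were on that scale. On it 0 members were at least 2-fold lower, and the share of all genes past 2-fold was not computed. With each library brought to the same sum, 3 members (5%) were at least 1.5-fold lower, below the 8.99% of all genes on that scale. The comparison also depends on which other genes are set beside the members. The 48 other genes averaging 1000 RPKM or more had a median log2 difference of -0.55, with 20 of them (41.7%) at least 1.5-fold lower, and the members' median lay 0.20 below theirs. The 48 include the ribosomal protein genes crp-7 and ubi::crp-6 and the translation factor genes tef-1, cot-3 and eif5A, all described below. The gene table gives no products for genes without a symbol, so how many more of these 48 encode ribosomal proteins is not known.

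**Figure D3:**
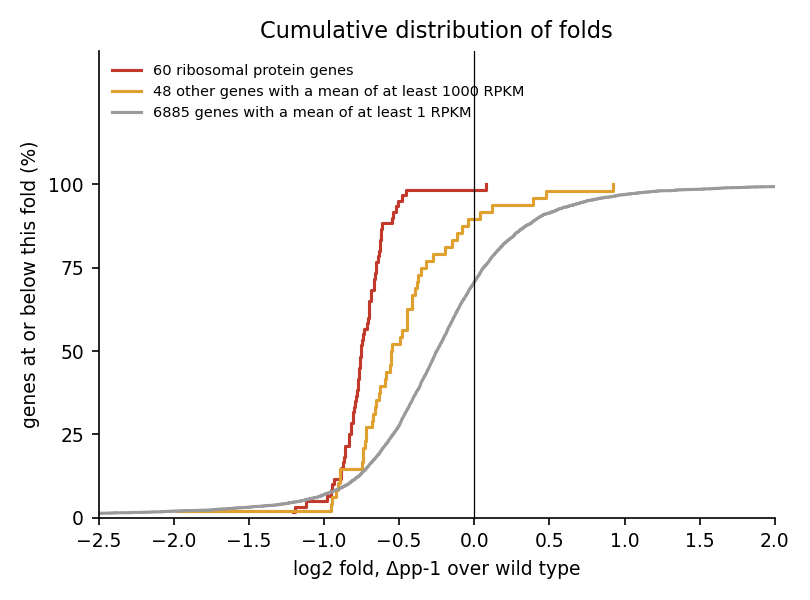
Percent of genes (y axis) at or below each log2 difference, Δpp-1 over wild type (x axis), for the 60 ribosomal protein genes, the 48 other genes averaging 1000 RPKM or more and the 6885 genes averaging 1 RPKM or more. The red curve is the steepest of the 3 and crosses 50% at -0.75, against -0.55 and -0.25 for the others.

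Ribosomal protein genes also held a smaller share of the transcript pool in Δpp-1. These 60 genes are 0.701% of the genes measured. Their sum was 85420 RPKM in Δpp-1 and 143291 RPKM in the wild type, or 19.8% of the sum over all genes for Δpp-1 and 25.1% for the wild type. Since a share is formed within each library, the scaling between libraries does not enter it. The sum over all genes was 432312 RPKM in Δpp-1 and 570124 RPKM in the wild type, 1.32-fold larger in the wild type. On the deposited scale the 60 genes accounted for 42.0% of that gap. Unlike the share, this figure depends on the scaling between the libraries. A sum of RPKM counts transcripts per length, so the share is one of transcript number and not of reads.

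The 3 genes past 2-fold were crp-15, rap-1 and NCU03757. The gene crp-15 (NCU00258), which the gene table also lists under crp(S7), had 991 RPKM in Δpp-1 and 2290 RPKM in the wild type. Its log2 difference of -1.21 (95% counting interval -1.24 to -1.18) was the lowest of the 60. rap-1 (NCU03393) stood at 917 RPKM in Δpp-1 and 2096 RPKM in the wild type, with -1.19 (-1.23 to -1.16). NCU03757 stood at 1027 RPKM in Δpp-1 and 2235 RPKM in the wild type, with -1.12 (-1.16 to -1.09). In the wild type these 3 stood close to the median member, and in Δpp-1 they were among its lower members.

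The next lowest were NCU06210, with a log2 difference of -0.98, and po. po (NCU07408) stood at 1235 RPKM in Δpp-1 and 2396 RPKM in the wild type, with -0.96. The gene po, also listed as crpP0, encodes P0, the base of the stalk on the large subunit that recruits the GTPase translation factors. At the other end of the set, apart from NCU05275, NCU03738 stood at 1494 RPKM in Δpp-1 and 2048 RPKM in the wild type, a log2 difference of -0.46. crp-5 followed with -0.48. NCU00706 stood at 1558 RPKM in Δpp-1 and 2218 RPKM in the wild type, with -0.51. NCU08964 stood at 1242 RPKM in Δpp-1 and 1784 RPKM in the wild type, with -0.52. These least shifted genes still lay below the median of all genes, by 0.21 for NCU03738 and by 0.27 for NCU08964.

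The remaining genes with a symbol showed the common shift. The gene cyh-2 (also listed as crp-1), a large-subunit gene in which mutations give resistance to the translation inhibitor cycloheximide, stood at 1725 RPKM in Δpp-1 and 3072 RPKM in the wild type. crp-2 (NCU07830) stood at 1173 RPKM in Δpp-1 and 1962 RPKM in the wild type. crp-3 (NCU07014) stood at 1330 RPKM in Δpp-1 and 2143 RPKM in the wild type. Their log2 differences were -0.83, -0.74 and -0.69. crp-4 (NCU04331) stood at 1077 RPKM in Δpp-1 and 1992 RPKM in the wild type. crp-10 (NCU00489) stood at 1449 RPKM in Δpp-1 and 2502 RPKM in the wild type. These differences were -0.89 and -0.79. The un genes were first defined by conditional mutants that fail to grow at high temperature. un-16 (NCU01949) stood at 1473 RPKM in Δpp-1 and 2580 RPKM in the wild type, and un-25 (NCU05554) stood at 1558 RPKM in Δpp-1 and 2858 RPKM in the wild type, with log2 differences of -0.81 and -0.87. Every one of these 7 genes was between 1.61-fold and 1.85-fold lower in Δpp-1.

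The other members carry no symbol and are given in order of their log2 difference. In the band from -1 to -0.8 were further genes that shifted more than most. NCU01776 stood at 1553 RPKM in Δpp-1 and 2991 RPKM in the wild type, and NCU06843 had 1172 RPKM in Δpp-1 and 2242 RPKM in the wild type. NCU06431 stood at 1233 RPKM in Δpp-1 and 2278 RPKM in the wild type, and NCU01452 had 1561 RPKM in Δpp-1 and 2852 RPKM in the wild type. NCU06047 stood at 1248 RPKM in Δpp-1 and 2266 RPKM in the wild type, and NCU01221 had 1442 RPKM in Δpp-1 and 2567 RPKM in the wild type. Each of these was between 1.78-fold and 1.93-fold lower in Δpp-1. NCU08502 stood at 1308 RPKM in Δpp-1 and 2310 RPKM in the wild type, and NCU01317 had 1508 RPKM in Δpp-1 and 2659 RPKM in the wild type.

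The central band, from -0.8 to -0.7, held the median member. NCU01966 stood at 1390 RPKM in Δpp-1 and 2420 RPKM in the wild type, and NCU03102 had 1744 RPKM in Δpp-1 and 2998 RPKM in the wild type. NCU03150 stood at 1328 RPKM in Δpp-1 and 2276 RPKM in the wild type, and NCU07829 had 1507 RPKM in Δpp-1 and 2571 RPKM in the wild type. NCU06226 stood at 1141 RPKM in Δpp-1 and 1942 RPKM in the wild type, and NCU02509 had 1334 RPKM in Δpp-1 and 2258 RPKM in the wild type. These genes were 1.69-fold to 1.74-fold lower. NCU00475 stood at 1815 RPKM in Δpp-1 and 3072 RPKM in the wild type, and NCU00413 had 1794 RPKM in Δpp-1 and 3022 RPKM in the wild type. NCU04779 stood at 1340 RPKM in Δpp-1 and 2245 RPKM in the wild type, and NCU03565 had 1346 RPKM in Δpp-1 and 2211 RPKM in the wild type. NCU06432 stood at 1626 RPKM in Δpp-1 and 2659 RPKM in the wild type.

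From -0.7 to -0.6 the shift was somewhat smaller. NCU00294 stood at 1822 RPKM in Δpp-1 and 2958 RPKM in the wild type, and NCU03038 had 1479 RPKM in Δpp-1 and 2401 RPKM in the wild type. NCU05804 stood at 1603 RPKM in Δpp-1 and 2600 RPKM in the wild type, and NCU00464 had 1542 RPKM in Δpp-1 and 2487 RPKM in the wild type. NCU08344 stood at 1210 RPKM in Δpp-1 and 1917 RPKM in the wild type, and NCU00634 had 1270 RPKM in Δpp-1 and 2003 RPKM in the wild type. These were 1.58-fold to 1.62-fold lower. NCU03635 stood at 1132 RPKM in Δpp-1 and 1785 RPKM in the wild type, and NCU06661 had 1135 RPKM in Δpp-1 and 1786 RPKM in the wild type. NCU05599 stood at 1796 RPKM in Δpp-1 and 2796 RPKM in the wild type, and NCU09109 had 1551 RPKM in Δpp-1 and 2406 RPKM in the wild type. NCU02744 stood at 1554 RPKM in Δpp-1 and 2399 RPKM in the wild type, and NCU02905 had 1263 RPKM in Δpp-1 and 1946 RPKM in the wild type. Here the ratios ran from 1.54-fold to 1.58-fold. NCU03703 stood at 1355 RPKM in Δpp-1 and 2084 RPKM in the wild type, and NCU00971 had 1889 RPKM in Δpp-1 and 2895 RPKM in the wild type. The smallest shifts, from -0.6 to -0.4, also belonged to NCU07182 and NCU01827. NCU07182 stood at 1873 RPKM in Δpp-1 and 2739 RPKM in the wild type, and NCU01827 had 1555 RPKM in Δpp-1 and 2259 RPKM in the wild type.

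**Figure D4:**
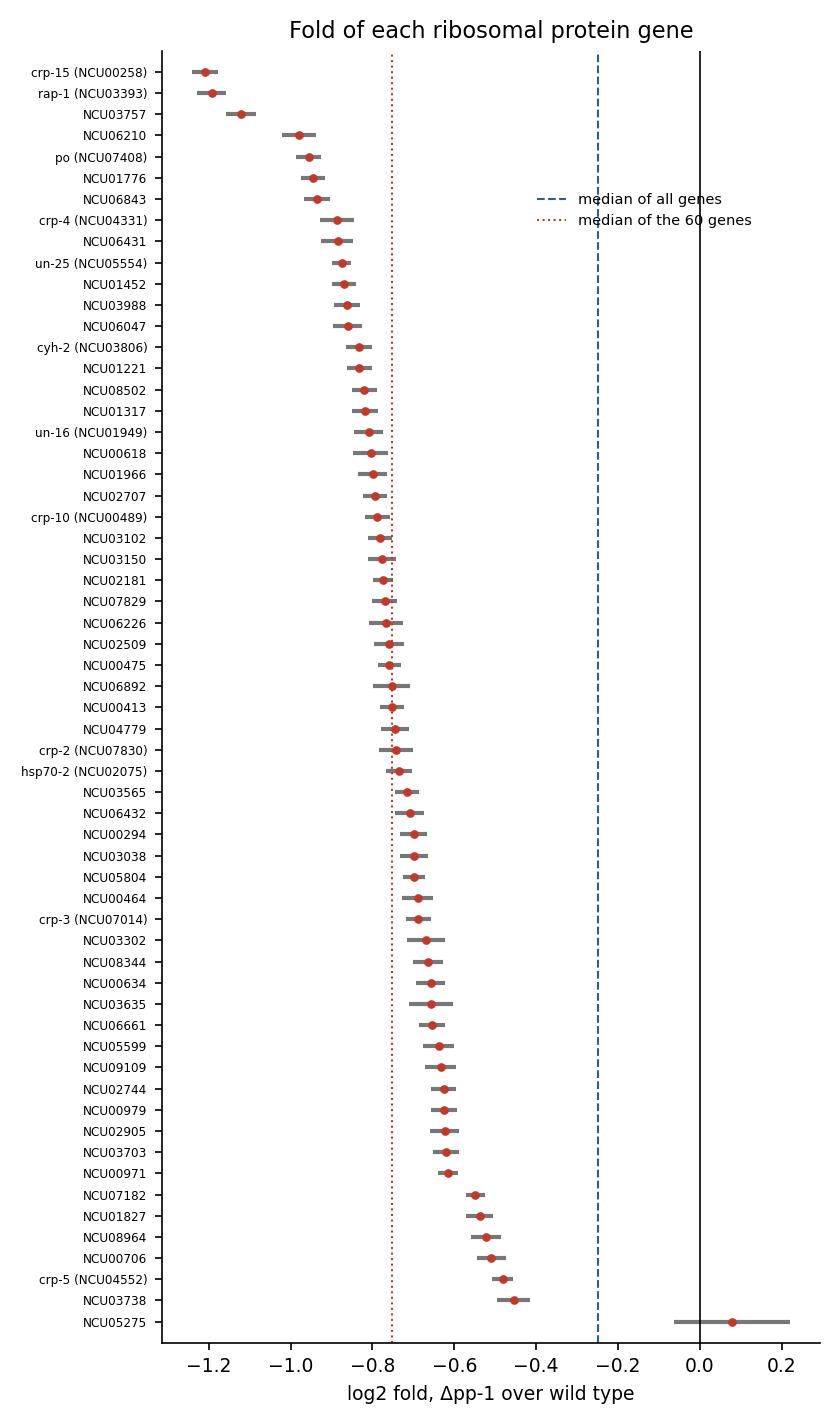
Log2 difference (x axis) of each of the 60 genes (y axis, ordered), Δpp-1 over wild type, with its 95% counting interval as a grey bar; lines mark 0, the median of all genes (-0.25) and the median of the 60 genes (-0.75). The genes run in a near continuous series from crp-15 at -1.21 to NCU03738 at -0.46, with NCU05275 apart at 0.08.

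The log2 differences of the members spread less than those of all genes. Without NCU05275 the SD of their log2 differences was 0.15 (0.19 with it), against 0.75 over all genes, and the interquartile range was 0.17 against 0.60. Of the 59 genes, 33 lay within 0.1 and 48 within 0.2 of the median of the 60, where 18.0% and 34.9% of all genes lay that close to their own median. All genes include many of low level. Closer in level, the 48 other genes averaging 1000 RPKM or more had an SD of 0.44 and an interquartile range of 0.37.

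The spread that remained among the members was larger than counting error. The 95% counting interval reached 0.033 to either side for the median gene, and the counting SD of 0.018 made up 1.31% of the variance of the 59 values. The interval lay wholly below the all-gene median for 59 of the 60 genes and wholly above it for NCU05275. It lay wholly below the median member for 22 genes, held it for 12 and lay wholly above it for 26. With the lower totals given above, these counts were 18, 18 and 24, and the interval of the median gene reached 0.046 to either side. The intervals cover counting error only, and library preparation can shift a gene by more than that. Without replicates, the difference between crp-15 and NCU03738, for example, could not be separated from such variation.

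The order of the genes by level was largely kept. Across the 59 genes, which share the 2 libraries, log2 levels in Δpp-1 and the wild type correlated with Pearson's r = 0.90 and Spearman's rho = 0.88, within a range of only a few-fold. The log2 difference had a Spearman rho of 0.12 with mean level and -0.19 with annotated gene span, which ran from 921 to 3300 bases including introns. The level had a rho of 0.009 with span. These describe the members and carry no test.

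In 2 places the gene table lists members next to each other. NCU07829 and crp-2 (NCU07830) are neighbours and had log2 differences of -0.77 and -0.74. For NCU06431 and NCU06432 they were -0.89 and -0.71. A further pair joins crp-5 to ubi::crp-6 (NCU04553), a gene for ubiquitin fused to a ribosomal protein that was not in the set. The gene ubi::crp-6 stood at 2914 RPKM in Δpp-1 and 4250 RPKM in the wild type, a log2 difference of -0.54 next to the -0.48 of crp-5. Both had higher levels and smaller shifts than most members. Other genes also encode ubiquitin, so reads of ubi::crp-6 may be shared with them.

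Of other translation genes, crp-7, tef-1 and cot-3 were at least 1.5-fold lower on the deposited scale, and ubi::crp-6 and eif5A were not. This split depends on the scaling. With both libraries scaled to the same median, only tef-1 of these genes was past 1.5-fold, at -0.70 (background 10.9%). With each library brought to the same sum none was, with tef-1 at -0.55, cot-3 at -0.35 and crp-7 at -0.19 (background 8.99%). The further ribosomal protein gene crp-7 (NCU08627) stood at 2093 RPKM in Δpp-1 and 3155 RPKM in the wild type, a difference of -0.59. Of the 3 translation factor genes with a symbol, 2 were at least 1.5-fold lower on the deposited scale (background 22.3%) and 0 higher. The gene tef-1 (NCU02003), which encodes elongation factor eEF1A, was the most abundant transcript in both libraries, with 6372 RPKM in Δpp-1 and 12343 RPKM in the wild type, a difference of -0.95. The gene cot-3 (NCU07700), which encodes elongation factor eEF2, stood at 915 RPKM in Δpp-1 and 1533 RPKM in the wild type, a difference of -0.74. For eif5A (NCU05274), which encodes a factor that helps the ribosome through difficult peptide bonds, the levels were 1604 RPKM in Δpp-1 and 2094 RPKM in the wild type. Its difference of -0.38 was smaller than that of 59 of the 60 ribosomal protein genes, and it was 0.015 with each library brought to the same sum.

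Histone and glycolysis genes had less negative or positive differences. Of 5 core histone genes, whose products package DNA, 0 were at least 1.5-fold lower (background 22.3%) or higher (background 7.16%), counts near the background for so few genes. Their median log2 difference of -0.27 was 0.02 below that of all genes. They ran from hH2A (NCU02437), with 1281 RPKM in Δpp-1 and 1710 RPKM in the wild type (-0.42), to hH4-2 (NCU00212), with 694 RPKM in Δpp-1 and 708 RPKM in the wild type (-0.03). Of 8 glycolysis genes with a symbol, 0 were at least 1.5-fold lower (background 22.3%) and 1 at least 1.5-fold higher (background 7.16%). Their median was 0.04, which is 0.29 above that of all genes. The highest was gpi-1 (NCU07281), for phosphoglucose isomerase, with 177 RPKM in Δpp-1 and 105 RPKM in the wild type (0.75). The count past 1.5-fold depends on the scaling. With both libraries scaled to the same median, gpi-1 was at 1.01, emp-1 (NCU02542) at 0.84 and pgk (NCU07914) at 0.67, all past 1.5-fold. The share of all genes at least 1.5-fold higher on that scale was not computed. The lowest of the 8 was ace-8 (NCU06075), for pyruvate kinase, with 631 RPKM in Δpp-1 and 804 RPKM in the wild type (-0.35). With each library brought to the same sum, ace-8 was at 0.05. All 13 of these genes lay above the median member of the ribosomal protein set. Several glycolysis genes and the histone genes hH4-1 (NCU01634) and hH4-2 had lower levels than the 59 abundant members. Other abundant genes outside translation had shifts within the members' range, among them am (NCU01195), chosen here after its value was seen, which encodes NADP-dependent glutamate dehydrogenase, with 847 RPKM in Δpp-1 and 1576 RPKM in the wild type (-0.90). Whether the lists differ was not tested, since no replicate spread is known.

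**Figure D5:**
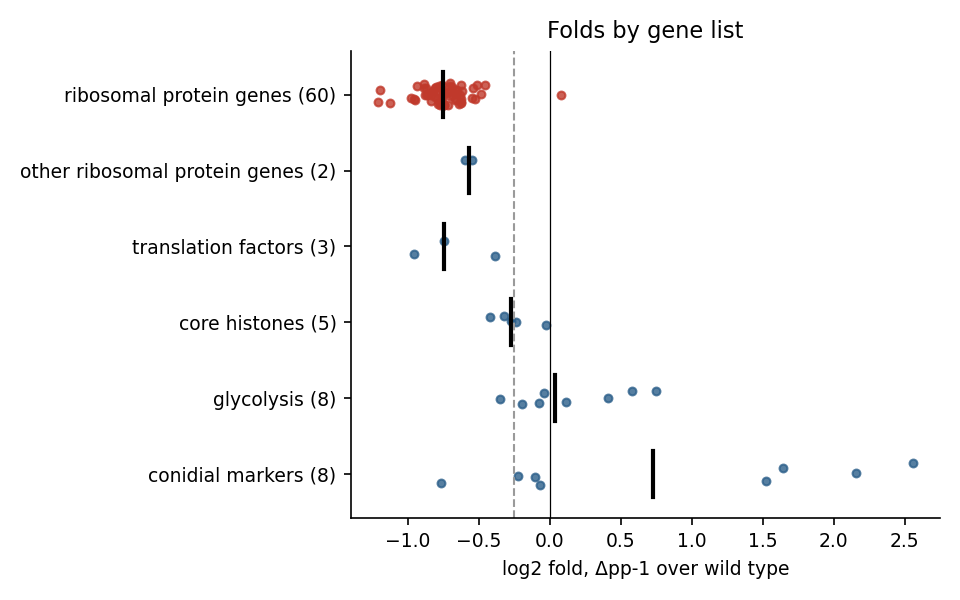
Log2 difference of each gene (x axis), Δpp-1 over wild type, by gene list (y axis, with the number of genes), with list medians as black bars, 0 as a solid line and the all-gene median as a dashed line; points are shifted at random within a row. Ribosomal protein genes and translation factors lie left of the dashed line except NCU05275, histones around it, and 7 of 8 glycolysis genes right of it.

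Markers of conidia and aerial hyphae differed between the same libraries. Of 8 such genes, 4 were 2-fold or more higher in Δpp-1 (background 3.12%) and 0 at least 2-fold lower (background 7.02%). Their summed level was 337 RPKM in Δpp-1 and 93.3 RPKM in the wild type, with single genes from 0.668 to 187 RPKM in Δpp-1 and from 1.83 to 41.1 RPKM in the wild type, and none was at 0. The 4 were con-6, con-10, eas and al-1. The others had log2 differences of -0.07 (fl), -0.11 (ccg-1), -0.23 (con-8) and -0.76 (acon-3). Without the pseudocount acon-3, at 0.668 RPKM in Δpp-1 and 1.83 RPKM in the wild type, was 2.75-fold lower, at levels near the floor. Other pseudocounts and scalings were not run for this list. The largest part of the sum was al-1, with 187 RPKM in Δpp-1 and 41.1 RPKM in the wild type. Whether these markers bear on the shift of the ribosomal protein genes was not tested, and with 1 library per strain, strain and culture state cannot be told apart.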

How the data were processed

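Per the labels' protocols, each library was made from oligo(dT)-selected, fragmented mRNA copied with random primers and amplified by PCR, steps that keep no strand information, so overlapping genes share reads. The deposited tables, 1 per library, hold RPKM per the file headers. The submitters' processing notes list TopHat and Cufflinks. Their versions, the genome build and the annotation are not given in the sources used here. Of 8802 lines for 8564 genes, repeated ones carried 1 value per gene and were used once.

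Names, spans and neighbours came from the RefSeq gene table of NC12, which matched 8087 identifiers by current and 141 by older locus tag. All 60 members matched, 12 with a symbol. It lists no products. Comparisons by subunit and a mitochondrial list were therefore not run, 2 glycolysis genes without a symbol were left out, and the list for ribosome assembly was dropped because its matches by symbol were doubtful. No sequences were used here.

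Values were kept as deposited, with a pseudocount of 1 RPKM. Background shares are over the 6885 genes averaging 1 RPKM or more. Among low values, RPKM times span fell on multiples of 0.107 for Δpp-1 (28 genes within 0.1%, against a median of 3 for other spacings) and of 0.127 for the wild type (27 genes against 3). This spacing was taken as 1 read, although no gene stood at a single one, so the totals are uncertain and may be lower. Against the lower totals, 10 genes in each library stood at 3 spacings, which would then be no whole number of reads. Much smaller spacings, which would give higher totals, were not tried. Counting intervals for the ratio of RPKM are Clopper-Pearson, exact, at 95%. They rest on 50% of the reads computed from span, because spans include introns, and cover counting error only, as PCR copies are not independent molecules. The code was tested on simulated data. Python 3.11.15, pandas 2.3.3, numpy 2.4.6, scipy 1.17.1 and matplotlib 3.10.9 were used. The members and lists were chosen with earlier results of these data known. Named were pp-1, every member, the translation factors, the conidial markers and, in other lists, the genes with the largest and the smallest difference. Also named were emp-1 and pgk, for passing 1.5-fold on another scale, and am, atp-2 and cpc-2, chosen after their values were seen.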

Additional observations from a re-analysis of the deposited data

How the results depend on the processing

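The median log2 difference of the ribosomal protein genes stayed negative under each pseudocount and scaling tried. With each pseudocount and filter, 59 of 60 members stayed below the median of all genes. The exception was the background of other genes of at least 1000 RPKM, whose median 54 of 60 lay below. A scaling moves all genes of a library alike, so it could hardly change these counts and does not check them. No paired analysis was possible because there were no replicates, and leaving 1 out was likewise impossible. The alternatives by subunit could not be run, since no subunit is annotated, and ranks are given beside the levels. Against a median of -0.75, 53 genes past 1.5-fold and 3 past 2-fold, the values were -0.49, 13 and 0 after median scaling and -0.50, 13 and 0 after upper-quartile scaling. With each library brought to a sum of 1000000 they were -0.35, 3 and 0. Past 1.5-fold these counts are 21.7%, 21.7% and 5% of the members, where 10.9%, 11.2% and 8.99% of all genes passed. Past 2-fold, 4.58%, 4.65% and 4.34% of all genes passed. All of these scalings lift the Δpp-1 values. Of 19 other genes (pp-1 and those of the lists, conidial markers aside), 9 changed the sign of their log2 difference under some pseudocount or scaling. Among the 60 members 0 did. The scalings lift all genes alike, so only genes a little below 0 could change sign. The negative member nearest 0, NCU03738 at -0.46, reached -0.056 with the same sums. The share of all genes that changed sign was not computed. The median relative to all genes was -0.50. It was -0.57 with a pseudocount of 5, -0.41 against genes of at least 100 RPKM, -0.57 with no filter, and -0.20 against the other genes of at least 1000 RPKM, a background chosen after seeing the data. In the same order, further ribosomal protein genes were at -0.39, -0.23, -0.39 and -0.020, translation factors at -0.56, -0.40, -0.57 and -0.20, glycolysis genes at 0.22, 0.38, 0.22 and 0.59, and core histones at -0.089, 0.069, -0.093 and 0.28. The side on which histones lie of the median of all genes thus depends on the background, and with a pseudocount of 0.1 or another scaling it was above 0 by under 0.01. The spread (SD) was 0.15 without NCU05275, left out after seeing the data, against 0.19. The share of summed RPKM, 19.8% for Δpp-1 and 25.1% for the wild type, was 22.6% for Δpp-1 and 28.8% for the wild type without the 20 most abundant other genes. It was 17.7% for Δpp-1 and 22.7% for the wild type without the 5 most abundant members, and 19.5% for Δpp-1 and 24.8% for the wild type without NCU05275 and NCU02075, chosen after seeing the data. The counting intervals rest on the larger library totals. These could be as low as 4681955 reads in Δpp-1 and 3935025 reads in the wild type, an alternative added after seeing the data, and replicate spread is not known.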

Other observations

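Besides the 60 genes, 36 genes that were not in the set had levels inside the range of the 59 abundant members in both libraries. The 20 of them without a symbol had a median log2 difference of -0.67, and 8 of these lay within the members' quartiles. The 16 with a symbol had a median of -0.35, and 1 lay within those quartiles. That one was cot-3. Outside the quartiles but inside the range of the 59 abundant members were 4, crp-7, am, atp-2 and cpc-2, named here after their values were seen. The gene am had a difference of -0.90 and is described above. The gene atp-2 (NCU05430), for the beta subunit of the mitochondrial ATP synthase, had 1355 RPKM in Δpp-1 and 1994 RPKM in the wild type, a difference of -0.56. The gene cpc-2 (NCU05810) had 1325 RPKM in Δpp-1 and 2503 RPKM in the wild type, a difference of -0.92. Its product belongs to the RACK1 family, whose members bind the small ribosomal subunit. The gene table names no product for the genes without a symbol, and what they encode was not tested.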
